A study of Mus musculus with 14 samples.

Results

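Glutathione, glucuronide and sulfate transferases are the conjugating enzymes of the liver, and their transcripts were followed here in 14 libraries of liver and liver tumour of C3HeB/FeJ males, which come from an inbred mouse line prone to liver tumours at old age. The genes were chosen by name alone: every mouse symbol made of Gsta, Gstm, Gstp, Gstt, Gsto or Gstk, of Ugt1a, Ugt2a, Ugt2b or Ugt3a, or of Sult, followed by a number. The rule found 62 genes among the 21431 with a symbol, namely 21 glutathione transferases (Gst), 20 glucuronosyltransferases (Ugt) and 21 sulfotransferases (Sult). Of these, 41 passed edgeR's filter on low counts and were tested among 12300 features, and 21 did not pass it.

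The tumours fall into 6 labelled Grow and 4 labelled Regress, and 4 libraries are normal liver. How growth or regression was scored is not given in the sources used here. All mice were labelled 18 months old, had been examined for tumours at 10 months, and had then received injections on 5 days of every 28 for 6 cycles. Grow 2, 3 and 4 received temozolomide (TMZ, a drug that alkylates DNA) at 22 mg/kg with SAHA (suberoylanilide hydroxamic acid, a histone deacetylase inhibitor) at 85 mg/kg. Grow 6 received SAHA alone at 100 mg/kg, and Grow 1 and 5 received DMSO. Regress 1 and 3 received TMZ at 31 mg/kg, Regress 2 phosphate citrate buffer and Regress 4 DMSO. Normal 1 to 4 all received phosphate citrate buffer, and among the tumours only Regress 2 received that buffer alone.

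Conjugation makes a reactive or fat-soluble compound easier to export by joining it to glutathione, to glucuronic acid from UDP-glucuronate, or to sulfate from the donor PAPS. Glutathione transferases act on electrophiles and are grouped into classes such as Alpha, Mu and Pi. Glucuronosyltransferases sit in the endoplasmic reticulum and act on bilirubin, steroids, bile acids and phenols, and sulfotransferases act in the cytosol on phenols, catecholamines, hydroxysteroids and bile acids. In rodent liver many of these genes are under the control of HNF1, NRF2, the aryl hydrocarbon receptor and other xenobiotic sensors, and several differ between males and females.

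Promoter sequence is shown first for 11 genes on which the values below turn. RefSeq windows (build GRCm38.p6, from 250 bases before to 50 after the gene start) were found for 54 of the 62 genes and were searched on both strands for a half-site of HNF1 (GTTAAT), the core of the antioxidant response element that NRF2 binds (TGACNNNGC) and the core of the xenobiotic response element of the aryl hydrocarbon receptor (GCGTG). The HNF1 half-site was present in 14 of the 54 windows (25.9%), against 7.1% of all 32851 promoter windows. Among the 34 windows of tested genes 8 held it. The rest were those of Ugt1a10, Sult3a2 and the related genes Sult2a3 to Sult2a6, which did not pass the low-count filter. The antioxidant core was present in 2 of the 54 (3.7%), against 12.4% of all windows, and the xenobiotic core in 9 (16.7%), against 32.4%. A match is a description of these letters and not a test of binding, and the antioxidant and xenobiotic cores overlapped by 5 bases in Gstm5.

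The Ugt1a genes each have a promoter and first exon of their own in one locus on chromosome 1. In the following lines (5′ to 3′ on the strand of the gene, lower case, ending at the base before the gene start) capitals mark the HNF1 half-site on either strand, or in Ugt1a5 the xenobiotic core.
Ugt1a1 (chr1:88211859-88211958, plus strand): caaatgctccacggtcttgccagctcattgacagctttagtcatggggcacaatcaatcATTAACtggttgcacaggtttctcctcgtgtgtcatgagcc
Ugt1a6a (chr1:88134709-88134808, plus strand): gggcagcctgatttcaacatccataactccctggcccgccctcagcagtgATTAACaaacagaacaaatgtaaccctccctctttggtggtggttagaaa
Ugt1a9 (chr1:88070679-88070778, plus strand): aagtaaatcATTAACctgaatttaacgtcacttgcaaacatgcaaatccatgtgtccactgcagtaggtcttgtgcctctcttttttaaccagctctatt
Ugt1a5 (chr1:88165912-88166011, plus strand): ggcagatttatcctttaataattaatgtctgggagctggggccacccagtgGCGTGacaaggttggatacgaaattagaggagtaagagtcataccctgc
Counted from the gene start, the half-site began at position -41 in Ugt1a1, -50 in Ugt1a6a and -91 in Ugt1a9, and was not among the letters of the Ugt1a5 window.

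Ugt2a3 and Ugt2b5 lie on chromosome 5. Ugt2a3 carried the HNF1 half-site at 2 positions, separated by 1 base, and Ugt2b5, the one tested gene that edgeR called in a group comparison, held none of the 3 motifs in its window.
Ugt2a3 (chr5:87337196-87337295, minus strand): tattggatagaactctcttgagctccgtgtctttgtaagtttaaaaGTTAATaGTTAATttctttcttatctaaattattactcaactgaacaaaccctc
Ugt2b5 (chr5:87140341-87140440, minus strand): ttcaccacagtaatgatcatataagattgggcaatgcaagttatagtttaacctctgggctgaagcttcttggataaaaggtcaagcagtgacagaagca

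Among the glutathione transferases, Gsta3 held both an HNF1 half-site and an antioxidant core, here shown from position -160 to -61. Gstp1 and Gstp2 encode nearly identical proteins but were expressed very differently, and capitals mark the xenobiotic core that the Gstp1 window held. Gstm3, which was high in a single pair of tumours, and Sult2a8, the gene with the widest range of levels, held none of the 3 motifs.
Gsta3 (chr1:21240425-21240524, plus strand): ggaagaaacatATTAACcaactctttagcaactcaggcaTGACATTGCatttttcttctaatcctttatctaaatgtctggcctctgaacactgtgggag
Gstm3 (chr3:107969175-107969274, minus strand): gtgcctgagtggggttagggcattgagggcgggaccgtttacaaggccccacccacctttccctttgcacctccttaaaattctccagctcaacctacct
Gstp1 (chr19:4037913-4038012, minus strand): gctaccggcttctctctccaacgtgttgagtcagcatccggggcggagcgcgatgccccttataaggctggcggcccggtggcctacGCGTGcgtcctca
Gstp2 (chr19:4042222-4042321, minus strand): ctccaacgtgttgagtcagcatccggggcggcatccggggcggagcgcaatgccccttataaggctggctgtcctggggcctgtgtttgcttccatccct
Sult2a8 (chr7:14446588-14446687, minus strand): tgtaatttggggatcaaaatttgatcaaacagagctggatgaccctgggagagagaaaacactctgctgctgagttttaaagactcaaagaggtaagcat

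Library totals ran from 4707063 to 13394301 estimated counts, and levels are given as CPM, counts scaled to the TMM-adjusted library size, or, for comparisons between genes, as TPM, which also allows for transcript length. Grow 3 and Grow 4 were nearly copies of each other: over expressed features their log2 levels correlated at r = 0.985, against at most 0.961 for any other pair of libraries. Their median chi-square was 0.874, against 0.455 for sampling noise alone and at least 2.11 for any other pair. A difference above sampling noise does not show that they came from separate tumours. They were kept as 2 samples, with the pair summed as an alternative. Regress 1 resembled Normal 1, 2 and 4 (r of 0.934, 0.949 and 0.925) but Normal 3 less (0.815). Its r was 0.875 and 0.887 with Regress 2 and Regress 3, 0.715 with Regress 4, and 0.882 and 0.885 with Grow 3 and Grow 4. Regress 4 stood apart from its group, at r of 0.715, 0.812 and 0.773 with Regress 1, 2 and 3. It was nearer to Grow 1, 2, 5 and 6 (0.910, 0.916, 0.923 and 0.919). Other tumours also came near a normal liver, such as Grow 2 with Normal 3 (0.925). The labels give Regress 2 and Normal 4 one sample code in common. The labels do not say that the other samples came from separate animals, so p-values here reflect only how far these particular samples spread. In bulk tissue, fewer cells of a type and less RNA per cell cannot be told apart.

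The summed level of the transferases varied widely among tumours. Together the 62 genes took 4845, 4662, 12976, 13107, 5045 and 5898 CPM in Grow 1 to 6, 15861, 6888, 9156 and 4420 CPM in Regress 1 to 4, and 12813, 10775, 9847 and 12936 CPM in Normal 1 to 4. Grow 3, Grow 4 and Regress 1 were above the highest normal liver, and the other 7 tumours all lay below every normal liver. In summed TPM, Grow 3 and Grow 4 held 22176 and 22395 TPM and were again above the normal livers, whereas Regress 1 at 14193 TPM lay within their range of 13317 to 18405 TPM. Per length, 3 genes led in normal liver: Gstp1 at 4250 ± 1760 TPM, Gstm1 at 2186 ± 1141 TPM and Gsta3 at 2002 ± 673 TPM (SD, n = 4). The highest Ugt gene was Ugt2b5 at 976 ± 109 TPM and the highest Sult gene Sult2a8 at 866 ± 595 TPM in the same livers.

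**Figure D1:**
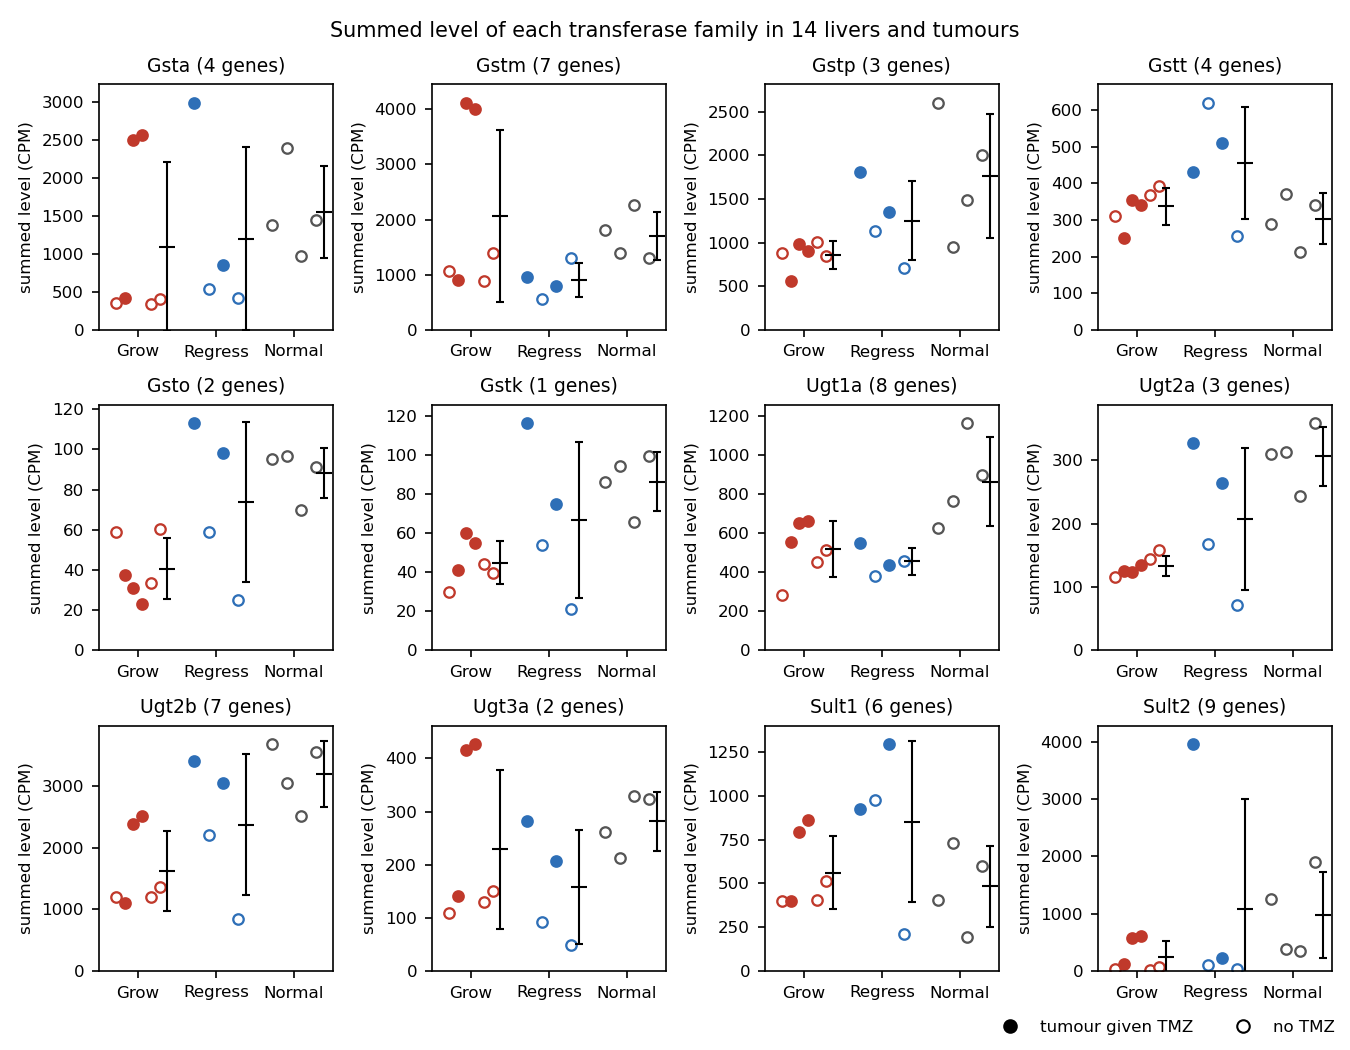
Summed level of 12 transferase families (CPM, linear axis from 0) in each Grow, Regress and Normal library. Filled points are tumours given TMZ, open points all other samples, and the bar at the right of each group is its mean with 1 SD, drawn no lower than 0. In Gsta the filled Grow 3, Grow 4 and Regress 1 points stand above every normal liver in CPM, though in TPM Regress 1 (3065) lies below the highest of them (3368), and in Ugt1a all but Grow 3 and Grow 4 of the 10 tumours lie below the lowest normal liver in CPM, though in TPM Grow 2 (596.8) lies above it (563.5).

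The first comparison set all 10 tumours against the 4 normal livers, the tumour effect being the average of that in Grow and that in Regress. At an adjusted p under 0.05, edgeR called none of the 41 genes, whereas it called 2.32% of all 12300 features. At an unadjusted p under 0.05 it counted 16 of the 41 (11 lower and 5 higher in tumours), against 18% of all features. The median log2 fold change of the 41 genes was -0.19, against 0.01 over all features. This median varied with single libraries: it was -0.11, -0.02, -0.36 and -0.04 without Normal 1, 2, 3 and 4 in turn, -0.30 without Grow 3, -0.33 without Grow 4, -0.33 without Regress 1, -0.29 without Regress 3 and -0.67 without both Grow 3 and Grow 4. The low-count filter was applied again in each of these fits, so 40 to 44 genes entered the median. By class, the median was 0.16 for the 19 Gst, -0.79 for the 14 Ugt and -0.08 for the 8 Sult genes tested. With single libraries left out, the Ugt median ran from -0.92 (without Regress 1) to -0.67 (without Normal 3), while the Gst median ran from -0.04 (without Grow 3) to 0.25 (without Grow 1) and the Sult median from -0.39 (without Normal 3) to 0.21 (without Normal 2), so that the sign of both turned. The Ugt median rests on 11 of 14 genes with a negative value, and 8 of the 14, against 2 of the 19 Gst genes, were lower at an unadjusted p under 0.05.

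The count depended on a few libraries and on the tool. DESeq2 called 7 of the 41 genes (8.58% of all features) and limma-voom none (1.03%). Without Regress 1, edgeR called 10 of 44 genes tested (7.84% of all features), without Regress 4 it called 1 (2.26%), without Grow 3 and Grow 4 it called 6 of 40 (4.73%), and without all of Grow 3, Grow 4 and Regress 1 it called 16 of 42 (11.1%), 13 of them lower. With TMZ as a term, so that tumours without TMZ set the tumour effect, it called 15 of 41, 13 lower and 2 higher (8.88% of all features), and with the trend of each library on transcript length removed it called 5, all lower (5.82%).

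**Figure D2:**
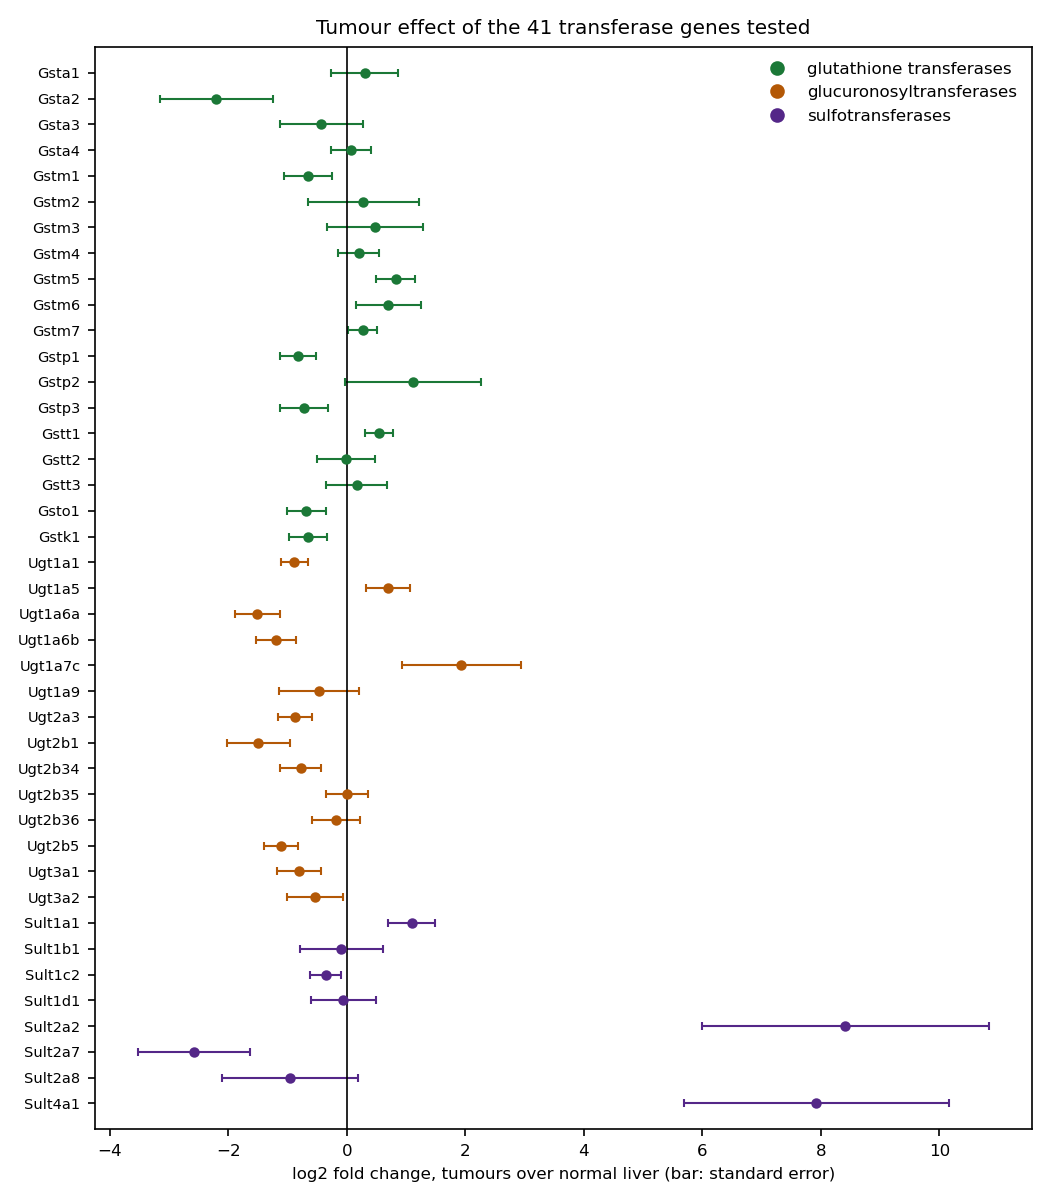
Log2 fold change of tumours over normal liver with its standard error (edgeR, 10 tumours and 4 normal livers) for the 41 genes tested, by family. Most glucuronosyltransferases lie left of 0 and the glutathione transferases on both sides. The fitted values of Sult2a2 and Sult4a1 rest on 0 counts in every normal liver and are not sizes of a change.

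Alpha-class glutathione transferases conjugate products of lipid peroxidation and, in mice, the epoxide of aflatoxin. Gsta3 made up 80.3 ± 7.27% of the class per length in Grow tumours, 84.7 ± 6.29% in Regress tumours and 85.7 ± 5.05% in normal liver (SD). Gsta3 ranged from 269 to 2345 CPM with a median of 349 in Grow tumours, and was at 2847, 476, 741 and 355 CPM in Regress 1 to 4 and at 1198, 2213, 834 and 1355 CPM in Normal 1 to 4. The highest 3 tumours, Grow 3, Grow 4 and Regress 1, were above all 4 normal livers, and the other 7 were below all of them. For Gsta3 in all tumours, edgeR gave a log2 fold change of -0.43 ± 0.69 (standard error) and an adjusted p of 0.855.

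The level of Gsta2 was 0.343 to 65.4 CPM (median 4.51) in the 6 Grow tumours, 19.9, 2.17, 3.09 and 3.10 CPM in Regress 1 to 4, and 77.6, 68.2, 61.7 and 27.9 CPM in Normal 1 to 4. Every tumour but Grow 3 and Grow 4 was below the lowest normal liver. In all tumours the log2 fold change of Gsta2 was -2.21 ± 0.96 (standard error, edgeR adjusted p = 0.237). Gsta1, whose protein is 95.07% identical to that of Gsta2, was low throughout, at 1.55 to 11.2 CPM in Grow, 2.96 to 7.98 CPM in Regress and 1.75 to 8.59 CPM in Normal, and the groups overlapped. For Gsta1 in all tumours, edgeR gave a log2 fold change of 0.30 ± 0.57 (standard error) and an adjusted p of 0.886. When reads of the pair were joined, the log2 fold change was -1.74 ± 0.73 with an edgeR adjusted p of 0.217, so the sign differed from that of Gsta1 alone. Gsta4, which clears the lipid aldehyde 4-hydroxynonenal, lay at 40.4 to 151 CPM in Grow, 58.3 to 111 CPM in Regress and 62.3 to 105 CPM in Normal.

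Mu-class enzymes form the largest Gst class in the table, with 7 genes, all tested. Gstm1 led it per length, with 66.0 ± 12.9% in Grow tumours, 59.9 ± 7.81% in Regress tumours and 75.8 ± 7.46% in normal liver (SD). The level of Gstm1 was 569 to 2180 CPM (median 976) in the 6 Grow tumours, 578, 326, 411 and 929 CPM in Regress 1 to 4, and 1464, 1052, 1875 and 869.9 CPM in Normal 1 to 4. Grow 3 and Grow 4 were above every normal liver and 3 of the 4 Regress tumours below all of them. In Regress tumours against normal liver the log2 fold change of Gstm1 was -1.23 ± 0.50 (standard error, edgeR adjusted p = 0.237).

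Gstm3 was high in 1 pair of tumours, Grow 3 and Grow 4. It stood at 696 and 674 CPM in Grow 3 and Grow 4, between 37.0 and 51.55 CPM in the other 4 Grow tumours, at 58.9, 17.8, 51.8 and 103.7 CPM in Regress 1 to 4, and at 71.3, 76.2, 125 and 80.6 CPM in Normal 1 to 4. Of the other 8 tumours, Regress 4 lay within the normal range and 7 lay below every normal liver. For Gstm3 in all tumours, edgeR gave a log2 fold change of 0.47 ± 0.81 (standard error) and an adjusted p of 0.87. Gstm2 had the same shape, at 616 and 596 CPM in Grow 3 and Grow 4, 14.2 to 84.6 CPM in Regress and 73.2 to 114 CPM in Normal, and Gstm6 stood at 349 and 346 CPM in that pair, at most 91.2 CPM in the other tumours and 40.1 to 109.98 CPM in Normal. Without Grow 3 and Grow 4 the log2 fold change of Gstm3 in tumours was -0.76 ± 0.33 (edgeR adjusted p = 0.238) and that of Gstm2 was -1.36 ± 0.36 (0.0494), so the sign of both turned.

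In the same pair, Glul, the glutamine synthetase gene that beta-catenin activates, was at 9962 and 9771 CPM, against 22.7 to 1519 CPM in the other tumours and 225 to 583 CPM in normal liver. The summed level of the 17 pericentral and beta-catenin genes listed was 29030 and 29274 CPM in Grow 3 and Grow 4, against 190 to 5485 CPM in the other tumours and 6209 to 13593 CPM in normal liver. Their part in the Mu-class values was not tested. Gstm5, a Mu gene expressed outside the liver as well, followed another pattern. The level of Gstm5 was 10.5 to 33.1 CPM (median 18.5) in the 6 Grow tumours, 17.7, 30.6, 36.6 and 14.95 CPM in Regress 1 to 4, and 13.9, 14.9, 9.71 and 13.5 CPM in Normal 1 to 4. All Regress tumours and all Grow tumours but Grow 2 were above the highest normal liver. In all tumours the log2 fold change of Gstm5 was 0.83 ± 0.33 (standard error, edgeR adjusted p = 0.196). Gstm4 and Gstm7 gave log2 fold changes in tumours of 0.20 ± 0.35 and 0.26 ± 0.25.

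The Pi class is dominated by Gstp1, an enzyme abundant in the liver of male mice. In the 6 Grow tumours Gstp1 lay between 537 and 990.1 CPM (median 786), with 1754, 1079, 1298 and 700.2 CPM in Regress 1 to 4 and 2535, 876, 1465 and 1959 CPM in Normal 1 to 4. The Grow tumours lay below 3 of the 4 normal livers, and Normal 2 was within their range. Its log2 fold change in Grow tumours against normal liver was -1.14 ± 0.34 (standard error), with an edgeR adjusted p of 0.0883. In all tumours the log2 fold change of Gstp1 was -0.82 ± 0.30 (standard error, edgeR adjusted p = 0.162). The level of its near-copy Gstp2, whose protein is 97.14% identical, was 193 and 176 CPM in Grow 3 and Grow 4, against 2.27 to 23.6 CPM in the other Grow tumours, 3.95 to 35.8 CPM in Regress and 4.80 to 35.8 CPM in Normal, of which Normal 1 held the highest. With counts of the pair joined, the log2 fold change in tumours was -0.76 ± 0.31 (edgeR adjusted p = 0.196). Gstp3 lay at 9.16 to 28.4 CPM in Grow, 10.2 to 48.8 CPM in Regress and 15.5 to 63.2 CPM in Normal.

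Theta, Omega and Kappa enzymes are each led by 1 gene. Gstt1, which conjugates small halogenated compounds, was at 167 to 245 CPM in Grow, 200.3 to 417 CPM in Regress and 126 to 221 CPM in Normal. For Gstt1 in Regress tumours against normal liver, edgeR gave a log2 fold change of 0.81 ± 0.28 (standard error) and an adjusted p of 0.166. Gsto1, which has thiol transferase and dehydroascorbate reductase activity, was at 58.7, 37.6, 30.9, 23.1, 33.2 and 60.5 CPM in Grow 1 to 6, all below the normal livers at 95.1, 96.4, 69.9 and 90.9 CPM, while Regress tumours ranged from 24.97 to 113 CPM. Its log2 fold change in Grow tumours against normal liver was -1.11 ± 0.37 (standard error), with an edgeR adjusted p of 0.12. Gstk1, an enzyme of mitochondria and peroxisomes, was at 29.7 to 59.8 CPM in Grow, again below every normal liver (65.4 to 99.6 CPM), and at 21.02 to 116 CPM in Regress. In Grow tumours against normal liver the log2 fold change of Gstk1 was -0.94 ± 0.35 (standard error, edgeR adjusted p = 0.172). Gstt2 and Gstt3 gave log2 fold changes in tumours of -0.01 ± 0.49 and 0.16 ± 0.52.

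**Figure D3:**
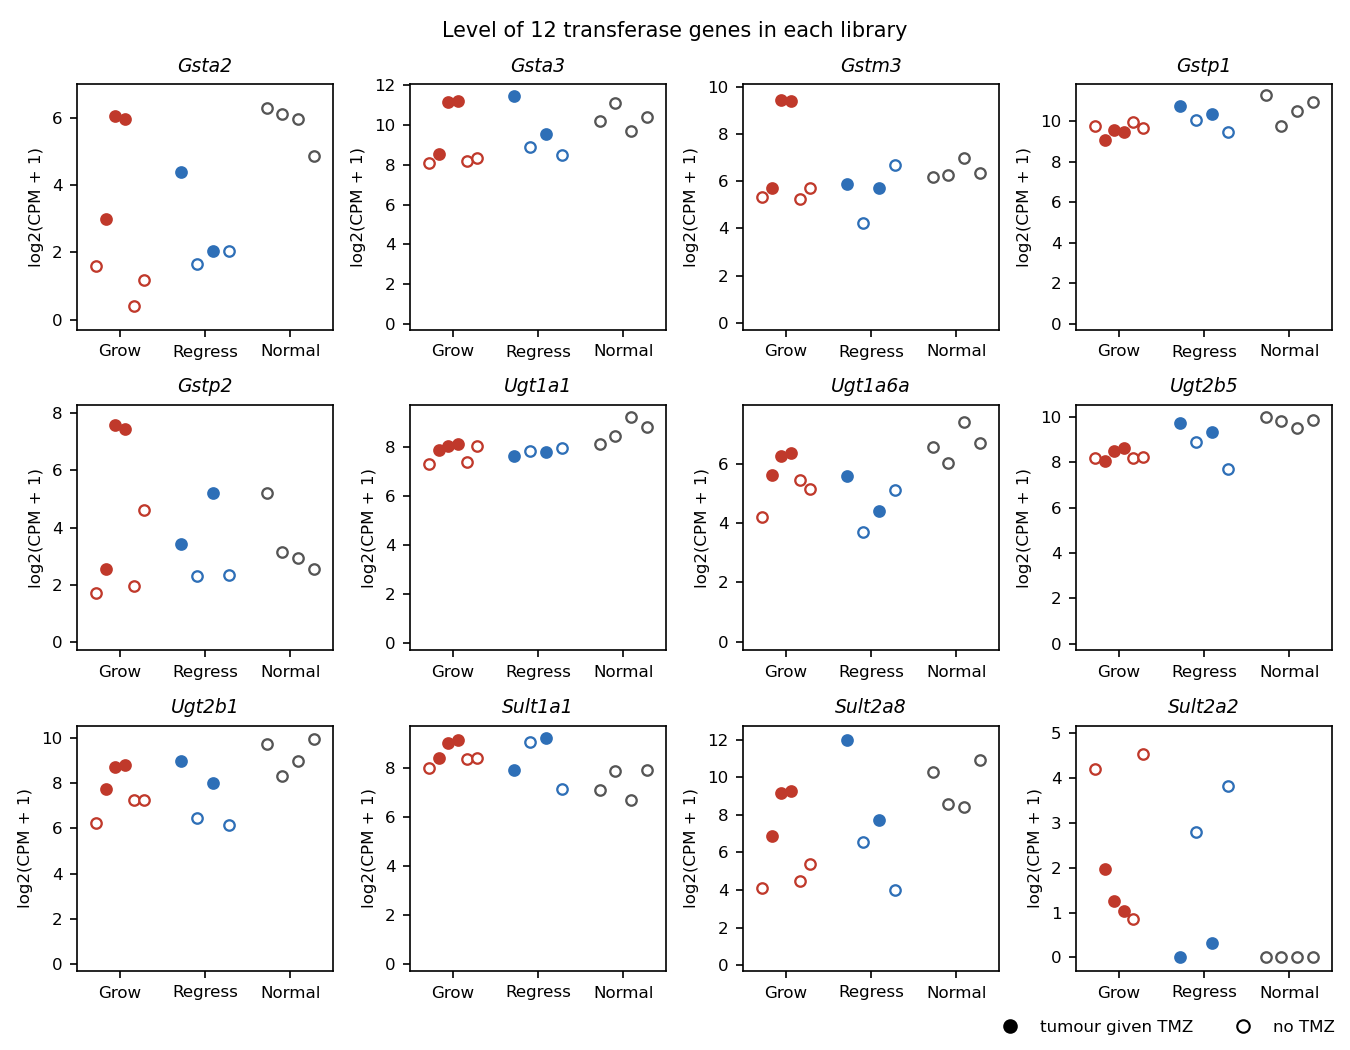
Level of 12 genes as log2(CPM + 1) in each Grow, Regress and Normal library, filled where the tumour was given TMZ. Ugt2b5 and Ugt1a1 are lower in Grow tumours than in any normal liver, Gstm3 and Gstp2 are high in Grow 3 and Grow 4, and Sult2a2 is at 0 in all normal livers.

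Among the glucuronosyltransferases, the Ugt1a locus held both genes whose tumours all lay below normal liver in CPM, although edgeR called neither. DESeq2 called both in all tumours, with adjusted p values of 0.00364 for Ugt1a1 and 0.0204 for Ugt1a6b. Ugt1a1, the enzyme that conjugates bilirubin, made up 45.4 ± 7.44%, 50.9 ± 10.0% and 48.5 ± 3.43% of the locus per length in Grow, Regress and Normal (SD). In the 6 Grow tumours Ugt1a1 lay between 159 and 275 CPM (median 251), with 199.96, 229, 220.2 and 251 CPM in Regress 1 to 4 and 277, 349.7, 596 and 451 CPM in Normal 1 to 4. All 10 tumours were below the lowest normal liver in CPM, but narrowly, at up to 275 CPM in Grow against 277 CPM in Normal 1. In TPM summed over the locus, Grow 2, 3 and 4 lay above Normal 1 (596.8, 706.6 and 727.9 against 563.5 TPM). Its log2 fold change in all tumours was -0.89 ± 0.23 (standard error), with an edgeR adjusted p of 0.0619.

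Ugt1a6a and Ugt1a6b encode phenol-conjugating enzymes that are 97.18% identical, so reads may be split between them. Ugt1a6a ranged from 17.4 to 82.3 CPM with a median of 45.9 in Grow tumours, and was at 47.1, 12.1, 20.3 and 34.1 CPM in Regress 1 to 4 and at 94.1, 65.0, 169 and 104 CPM in Normal 1 to 4. Only Grow 3 and Grow 4 reached into the normal range. For Ugt1a6a in all tumours, edgeR gave a log2 fold change of -1.51 ± 0.39 (standard error) and an adjusted p of 0.054. The level of Ugt1a6b was 61.3 to 193 CPM (median 107) in the 6 Grow tumours, 174, 40.7, 84.98 and 91.98 CPM in Regress 1 to 4, and 219.8, 253, 298 and 244 CPM in Normal 1 to 4. Here all 10 tumours were below all normal livers. In all tumours the log2 fold change of Ugt1a6b was -1.20 ± 0.33 (standard error, edgeR adjusted p = 0.0703). In CPM, non-overlap of this kind was met by 2 of the 41 genes in the lower direction, Ugt1a1 and Ugt1a6b, against 0.935% of all features, and by none in the higher direction, against 1.09%. Both genes belong to the same locus, and non-overlap was not read in TPM.

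Other genes of the locus did not share this pattern. Ugt1a5, which shares the common exons with Ugt1a1, was at 40.5 to 128 CPM in Grow, 82.2, 93.1, 82.9 and 75.6 CPM in Regress 1 to 4 and 16.3, 73.6, 59.8 and 64.3 CPM in Normal 1 to 4. All Regress tumours were above all normal livers, and Grow tumours overlapped with them. For Ugt1a5 in all tumours, edgeR gave a log2 fold change of 0.70 ± 0.37 (standard error) and an adjusted p of 0.354. Ugt1a9 was at 1.90 to 47.4 CPM in Grow, 3.24 to 43.9 CPM in Regress and 18.1 to 38.3 CPM in Normal, with a log2 fold change of -0.47 ± 0.67 in tumours. Ugt1a7c, an isoform known from the gut, was below 3 CPM in every library but Regress 3, where it reached 17.5 CPM. In Regress 3 the 4 intestine and stomach markers listed summed to 258 CPM, against 1.77 to 36.5 CPM in the other 9 tumours and 0.701 to 2.33 CPM in normal liver, most of it Lgals4 at 201 CPM, with Tff1 at 0 in all libraries, and their part in the Ugt1a7c value was not tested. Summed over the 8 genes of the locus, the log2 fold change in tumours was -0.83 ± 0.25 (edgeR adjusted p = 0.0913).

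Ugt2b enzymes conjugate steroids and bile acids, and Ugt2b5 was the one tested transferase that edgeR called in any of the 4 group comparisons, where DESeq2 called 7 in all tumours, 7 in Grow, 6 in Regress and 0 in Regress against Grow. The level of Ugt2b5 was 261 to 390.4 CPM (median 298) in the 6 Grow tumours, 847, 479.8, 638 and 209.8 CPM in Regress 1 to 4, and 1028, 913, 717 and 933 CPM in Normal 1 to 4. All 6 Grow tumours lay below the lowest normal liver, and Regress 1 was within the normal range. It fell in Grow tumours against normal liver, with a log2 fold change of -1.50 ± 0.32 (standard error) and an edgeR adjusted p of 0.034, and with -1.11 ± 0.29 and an edgeR adjusted p of 0.054 in all tumours. The call was lost without Normal 1, 2, 3 or 4 or without Grow 1, 2, 3, 5 or 6 (log2 fold change -1.60 to -1.43, edgeR adjusted p 0.0501 to 0.102). Of all features, 1.76% were called in Grow with every library. The share was 0.0317 to 0.19% without any 1 normal liver and 0.204 to 1.87% without Grow 1, 2, 3, 5 or 6. Joined with Ugt2b38, whose protein is 96.42% identical, Ugt2b5 gave -1.51 ± 0.32 in Grow (edgeR adjusted p = 0.0337).

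In the 6 Grow tumours Ugt2b1 lay between 74.6 and 447 CPM (median 185), with 507, 86.6, 254 and 69.6 CPM in Regress 1 to 4 and 848, 322, 500.3 and 997 CPM in Normal 1 to 4. All 5 tumours with TMZ exceeded all 5 tumours without it, and Normal 2 and Normal 3 lay within the range of the tumours. Its log2 fold change in all tumours was -1.49 ± 0.53 (standard error), with an edgeR adjusted p of 0.141. Ugt2b36 was at 655 ± 274 TPM in Grow, 801 ± 359 TPM in Regress and 880.3 ± 206 TPM in Normal (SD), and its log2 fold change in tumours was -0.19 ± 0.41. Ugt2b34 gave -0.78 ± 0.35 and Ugt2b35 0.01 ± 0.35 in the same comparison. Per length Ugt2b36 made up 40.7 ± 5.38%, 44.4 ± 9.09% and 30.4 ± 7.11% of the family in Grow, Regress and Normal, and Ugt2b5 25.2 ± 4.72%, 27.3 ± 2.95% and 33.7 ± 1.41% (SD).

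Ugt2a3 belongs to a family that in humans acts on bile acids, and it was the one tested gene of its family of 3. Ugt2a3 ranged from 115 to 158 CPM with a median of 130.2 in Grow tumours, and was at 328, 168, 264 and 71.95 CPM in Regress 1 to 4 and at 309.7, 312, 244 and 359 CPM in Normal 1 to 4. Each Grow tumour was below each normal liver. For Ugt2a3 in Grow tumours against normal liver, edgeR gave a log2 fold change of -1.20 ± 0.32 (standard error) and an adjusted p of 0.0675. Ugt3a enzymes use other sugar donors in humans. Ugt3a2, which made up 90.6 ± 4.52% of the family per length in Grow and 90.1 ± 3.61% in Regress (SD), was at 102 to 409 CPM in Grow, 45.9 to 259 CPM in Regress and 191 to 294 CPM in Normal, and Ugt3a1 at 7.99 to 18.9, 2.82 to 23.6 and 21.02 to 35.3 CPM in the same order. The log2 fold change of Ugt3a1 in all tumours was -0.81 ± 0.38 (standard error), with an edgeR adjusted p of 0.276.

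Phenol sulfotransferases were led by Sult1a1. Sult1a1 ranged from 253 to 549 CPM with a median of 332 in Grow tumours, and was at 238, 522, 582 and 138 CPM in Regress 1 to 4 and at 136, 234, 101 and 236 CPM in Normal 1 to 4. Every Grow tumour was above the highest normal liver, and Regress 4 was within the normal range. For Sult1a1 in all tumours, edgeR gave a log2 fold change of 1.09 ± 0.40 (standard error) and an adjusted p of 0.152. Its share of the Sult1 family per length was 80.1 ± 6.47% in Grow, 60.3 ± 16.5% in Regress and 52.9 ± 8.96% in Normal (SD). Sult1d1, which sulfates catecholamines, stood at 48.5 to 229.7 CPM in Grow, 57.1 to 598 CPM in Regress and 74.3 to 411 CPM in Normal, and Sult1b1, which sulfates thyroid hormones, at 10.2 to 71.6, 6.63 to 136 and 14.5 to 83.4 CPM. Sult1c2 gave a log2 fold change of -0.36 ± 0.26 in tumours.

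Sult2a enzymes sulfate hydroxysteroids and bile acids, and Sult2a8, a bile acid sulfotransferase of mouse liver, had the widest range of levels in CPM. Its level was 16.2, 118, 570, 612, 21.1 and 41.5 CPM in Grow 1 to 6, 3954, 92.5, 210 and 15.1 CPM in Regress 1 to 4, and 1249, 376, 340.5 and 1902 CPM in Normal 1 to 4. Regress 1 held more than any normal liver, and the 5 tumours without TMZ held the 5 lowest values. Its log2 fold change in all tumours was -0.96 ± 1.15 (standard error), with an edgeR adjusted p of 0.777. The 15 male-biased liver genes measured, such as Slco1a1 and the Mup genes, summed to 1582, 3791, 3123, 3152, 9065 and 2052 CPM in Grow 1 to 6, 20423, 5391, 7525 and 1302 CPM in Regress 1 to 4, and 10451, 3260, 5964 and 16502 CPM in Normal 1 to 4, and their part in the Sult2a8 values was not tested. Sult2a7 was low, at 0 to 1.14 CPM in Grow, 0 to 10.05 CPM in Regress and 2.33 to 13.1 CPM in Normal, with Grow entirely below Normal. In Grow tumours against normal liver the log2 fold change of Sult2a7 was -4.10 ± 1.17 (standard error, edgeR adjusted p = 0.0792).

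Sult2a2 and Sult4a1 had no count in any of the 4 normal livers. Sult2a2 stood at 17.5, 2.94, 1.39, 1.06, 0.799 and 22.3 CPM in Grow 1 to 6 and at 0, 5.93, 0.258 and 13.1 CPM in Regress 1 to 4. Against the limit that 3 counts over the normal group would give (0.12 CPM), its mean was at least 63.8-fold higher in Grow and at least 40.2-fold higher in Regress tumours, and at least 39.5-fold without Grow 6 and 17.2-fold without Regress 4. The edgeR adjusted p was 0.0885 in all tumours, 0.0883 in Grow and 0.152 in Regress. Sult4a1, a sulfotransferase best known from brain, was at 2.86, 4.33, 0.126, 0.118, 17.6 and 4.61 CPM in Grow 1 to 6 and 0, 4.75, 3.86 and 6.77 CPM in Regress 1 to 4, at least 41.1-fold and 32.0-fold higher than that limit in the means of Grow and Regress, and at least 20.1-fold in Grow without Grow 5. Its edgeR adjusted p was 0.0832 in all tumours. Neither gene exceeded 0 in Regress 1, and both were near the low end in Grow 3 and Grow 4.

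Sult2a1, a hydroxysteroid sulfotransferase of female mouse liver and one of the genes that mark this set, was not tested, since it had a count in 5 of 14 libraries only. Its level was 0.733, 0, 0, 0.118, 0 and 0.738 CPM in Grow 1 to 6, 0, 0.198, 0 and 1.55 CPM in Regress 1 to 4, and 0 in every normal liver. The protein of Sult2a1 is 93.33% identical to that of Sult2a5, so reads of the Sult2a1 to Sult2a6 group may be split. The 16 female-biased liver genes listed summed to 422 to 3402 CPM in Grow tumours, 47.3 to 6744 CPM in Regress tumours and 69.3, 1611, 39.9 and 86.7 CPM in Normal 1 to 4, and their part in the Sult2a values was not tested.

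Of the 21 genes that did not pass the filter, 3 had no count in any library (Gstt4, Sult1c1 and Ugt2a1), and 11 stayed below 1 CPM in every library. The one above 10 CPM anywhere was Sult3a1, a female-biased sulfotransferase of mouse liver, at 19.4 CPM in Normal 2 and at most 0.394 CPM in the other 13 libraries. Ugt2b38 reached 9.83 CPM in Normal 1, and Sult5a1 stood at 2.63, 0.876, 1.35 and 4.66 CPM in Normal 1 to 4, against at most 0.394 CPM in any tumour. Without the low-count filter, edgeR called Sult5a1 lower in all tumours (1.03% of all features called) and in Grow (0.795%). Sult2b1, which sulfates cholesterol, was at 0 in all normal livers and reached 5.41 CPM in Regress 3.

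Grow tumours alone were then set against normal liver. Only Ugt2b5 was called among the 41 genes (2.44%), against 1.76% of all features. At an unadjusted p under 0.05 there were 14, 11 of them lower, against 16.6% of all features, and the median log2 fold change was -0.32, against 0.00 over all features. That median was -0.19, -0.51, -0.53 and -0.21 without Grow 2, 3, 4 and 5 in turn, and -0.94 without both Grow 3 and Grow 4 (40 or 41 genes tested). All 6 Grow tumours lay below all 4 normal livers for 8 of the 41 genes, against 4.28% of all features: Gstk1, Gsto1, Sult2a7, Ugt1a1, Ugt1a6b, Ugt2a3, Ugt2b5 and Ugt3a1. They lay above all normal livers for 3 (Sult1a1, Sult2a2 and Sult4a1), against 5.27%. Sult4a1 was as low as 0.118 CPM in a Grow tumour, below the limit of 0.12 CPM that stands for a count of 0 in normal liver.

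DESeq2 called 7 of the 41 genes in Grow (8.24% of all features) and limma-voom none (0.732%). In edgeR the count was 3 of 44 without Regress 1 (4.69% of all features), 7 of 42 without Regress 4 (5.2%), 7 of 40 without Grow 3 and Grow 4 (3.93%) and 12 of 42 without Grow 3, Grow 4 and Regress 1 (7.8%). It was 14 with TMZ as a term (9.23%), 4 with the length trend removed (4.73%) and 6 of 40 with Regress libraries left out of the fit (7.32%). With Grow 3 and Grow 4 summed as 1 sample it was 0 of 40 (0.927%).

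Regress tumours against normal liver gave no called gene among the 41 with edgeR (0.0244% of all features), 12 at an unadjusted p under 0.05 (16.2% of all features), 6 with DESeq2 (5.79%) and 0 with limma-voom (0%). Of the 12, 6 were lower and 6 higher, and the median log2 fold change of the 41 was -0.26, against 0.03 over all features. It was 0.01, -0.08 and -0.14 without Normal 1, 2 and 4 in turn, and -0.49, -0.12 and -0.01 without Regress 1, 2 and 4 in turn (42 to 44 genes tested). The smallest edgeR adjusted p was 0.0864, for Ugt1a6a at a log2 fold change of -1.92 ± 0.50. All 4 Regress tumours lay below all normal livers for 5 genes (Gsta2, Ugt1a1, Ugt1a6a, Ugt1a6b and Ugt2b34), against 3.2% of all features, and above them for 2 (Gstm5 and Ugt1a5), against 2.72%. Without Regress 1 edgeR called 3 of 44 genes (5.28% of all features), without Grow 3, Grow 4 and Regress 1 it called 7 of 42 (7.44%), and with TMZ as a term 10 of 41 (5.63%).

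Regress tumours were also set against Grow tumours directly. edgeR called 0 of the 41 genes and 0% of all features, with 8 of the 41 at an unadjusted p under 0.05 (10% of all features). DESeq2 called 0 (0.252%) and limma-voom 0 (0%). No gene of the 41 separated the groups completely in either direction, against 0.545% of features that were lower and 0.374% that were higher in every Regress tumour. Sult1d1 (log2 fold change 1.56 ± 0.60), Ugt2b5 (0.78 ± 0.32) and Gsto1 (0.86 ± 0.37) were among the 8, with edgeR adjusted p values of 0.474, 0.474 and 0.478. Without Regress 4, edgeR called 5 of 42 genes, all higher in Regress (9.98% of all features): Ugt2b5, Ugt2b36, Ugt2a3, Gsto1 and Sult1d1.

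**Figure D4:**
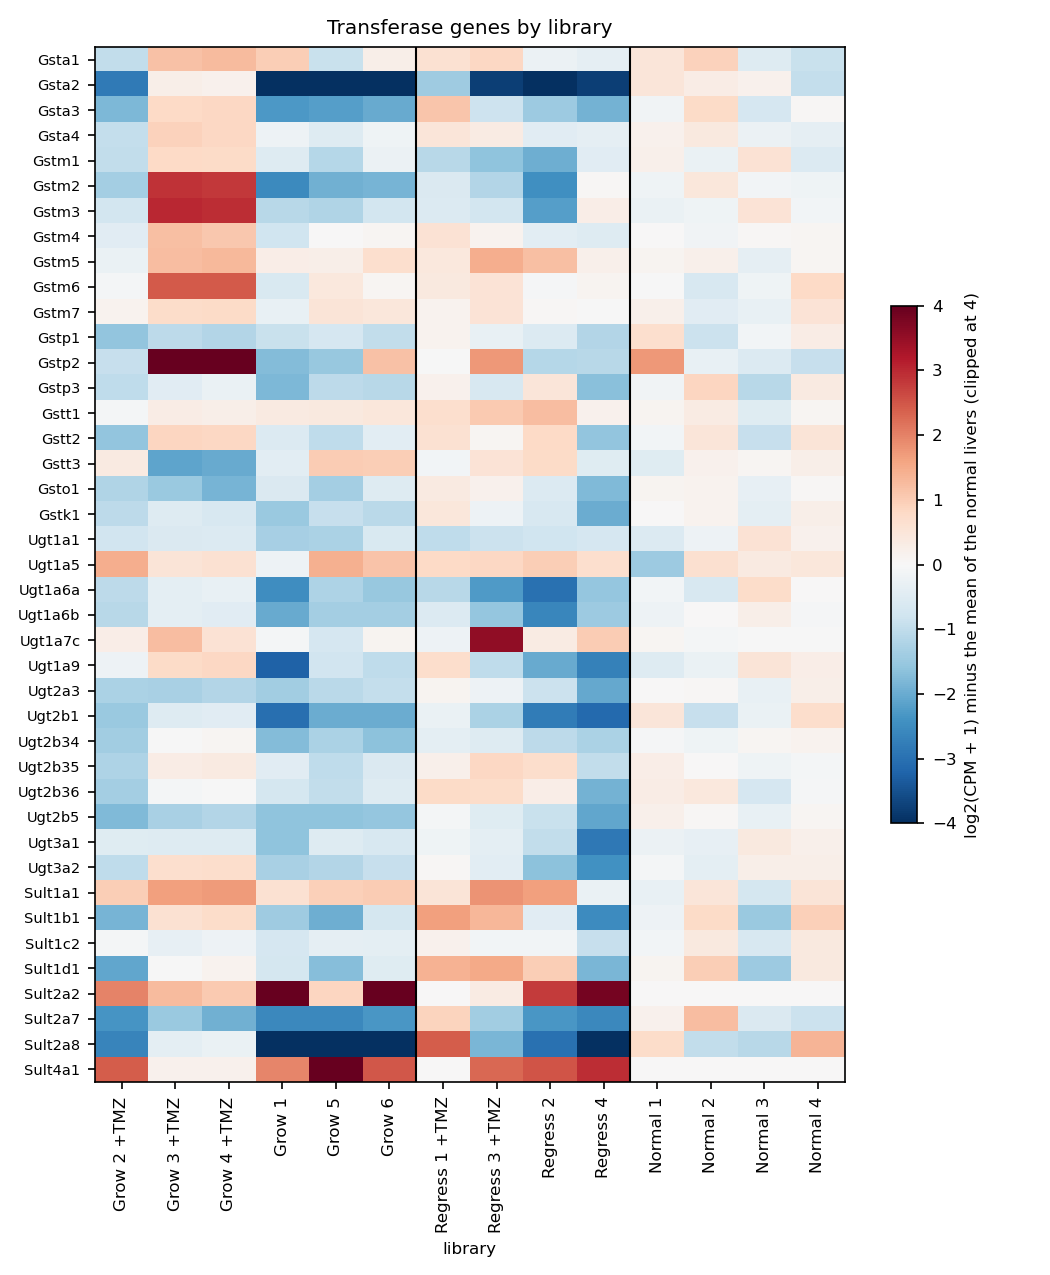
Level of the 41 tested genes in each library as log2(CPM + 1) minus the mean of the normal livers, clipped at 4 either way, with rows by family and columns by group, tumours given TMZ first in each tumour group. Grow 3 and Grow 4 show high Gstm2, Gstm3, Gstm6 and Gstp2, and the tumours without TMZ are lowest in Ugt2b1 and Sult2a8.

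Tumours given TMZ and tumours without it were compared next. Tumours given TMZ held 11152 ± 4343 CPM of the 62 genes, against 5419 ± 982 CPM in tumours without it (mean and SD, n = 5 each). Grow 2, given TMZ, held 4662 CPM, within the range of the tumours without it (4420 to 6888 CPM). With TMZ tested beside the group, edgeR called none of the 41 genes (0% of all features), and 20 of them passed an unadjusted p under 0.05 (13.9% of all features), 19 higher and 1 lower with TMZ. DESeq2 called 15 (3.77%) and limma-voom 0 (0.0163%). The median log2 fold change of the 41 was 0.80, against -0.03 over all features, and 36 of the 41 were positive. The median was 0.38 without Grow 3 and Grow 4 (40 genes tested) and 0.27 without Regress 1 as well (42 genes tested). The smallest edgeR adjusted p values were 0.0672 for Sult2a8 (4.54 ± 0.90 on the log2 scale), 0.0712 for Ugt3a2 (1.59 ± 0.33), 0.08 for Gsta2 (3.95 ± 0.84), 0.08 for Ugt2b1 (1.83 ± 0.39) and 0.0812 for Gsta3 (2.35 ± 0.51).

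The 5 tumours with TMZ and the 5 without did not overlap for 3 genes, Sult2a8, Ugt2b1 and Ugt3a1, all higher with TMZ (0.78% of all features were higher in this way), and for none in the other direction (0.967%). Ugt2b1 held 217, 426, 447, 507 and 254 CPM in Grow 2, 3 and 4 and Regress 1 and 3, against 74.6, 152, 153, 86.6 and 69.6 CPM in Grow 1, 5 and 6 and Regress 2 and 4. Within Grow, the mean of log2(CPM + 1) was higher with TMZ for 34 of the 41 genes (median difference 0.58), and within Regress for 36 (median 0.79). It was higher in both groups for 31 (75.6%), against 30.4% of all features. The means with TMZ rest on Grow 2, 3 and 4, of which Grow 3 and Grow 4 were nearly copies, and on Regress 1 and 3. The count was not repeated without Grow 3, Grow 4 and Regress 1, and genes that vary together are not separate repeats. The drug was given at 2 doses, always with SAHA in Grow and never in Regress, and normal livers received none.

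Tumours without TMZ and tumours with it were then each set against normal liver. All 5 lay below all 4 normal livers for 16 of the 41 genes, against 5.91% of all features, and above them for 3 (Gstm5, Sult2a2 and Sult4a1), against 8.45%. The 16 were Gsta2, Gsta3, Gstk1, Gsto1, Sult2a7, Sult2a8, Ugt1a1, Ugt1a6a, Ugt1a6b, Ugt1a9, Ugt2a3, Ugt2b1, Ugt2b34, Ugt2b5, Ugt3a1 and Ugt3a2. All 5 tumours with TMZ lay below all normal livers for 2 genes (Ugt1a1 and Ugt1a6b), against 1.79%, and above them for 1 (Sult1a1), against 1.64%. These comparisons share the normal livers.

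The TMZ count also turned on single libraries. Without Grow 2 edgeR called 14 of the 41 genes (6.01% of all features), without Regress 3 it called 4 of 43 (0.875%), without Grow 3 and Grow 4 it called 0 of 40 (0%), and with the length trend removed it called 4 of 41 (0.629%). In other lists edgeR called no gene with TMZ. At an unadjusted p under 0.05, which 13.9% of all features passed, 8 of 13 tested genes of other conjugating enzymes (such as Baat), 7 of 15 male-biased genes and 7 of 17 pericentral and beta-catenin genes were higher with TMZ and none lower, and of 20 inducible genes of the xenobiotic receptors and NRF2 7 were higher and 1 lower. Of 9 genes of UDP-glucuronate supply and of 9 other glutathione transferases, 2 each were higher and none lower. Of 21 genes of glutathione synthesis and recycling 5 were higher and 4 lower, and of 13 of sulfate and PAPS supply 3 and 2. Of 21 receptors and factors 2 were higher and 3 lower, and of 11 conjugate exporters 1 and 3. Of 12 female-biased genes 3 were lower and none higher. The part of these lists in the transferase values was not tested.

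SAHA was compared within Grow, 4 tumours with it against 2 given DMSO, 3 of the 4 having received TMZ too. edgeR called 0 of the 41 genes (0% of all features), 6 were higher at an unadjusted p under 0.05 (2.64% of all features), DESeq2 called 3 (0.423%) and limma-voom 0 (0%). The 6 were Gsta2, Gsta3, Gstm2, Gstm3, Gstm6 and Gstp2, each of which was highest in Grow 3 and Grow 4 among the Grow tumours. Of the 17 pericentral and beta-catenin genes, 16 were higher with SAHA at an unadjusted p under 0.05, with a median log2 fold change of 5.26 and none called, and their part in the transferase values was not tested. Grow 6, the one tumour with SAHA alone, held 22.1 CPM of Gstm2 and 51.3 CPM of Gstm3, against 13.3 and 20.9 CPM of Gstm2 and 39.5 and 37.0 CPM of Gstm3 in the DMSO tumours Grow 1 and 5.

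Genes that supply or serve conjugation were read from lists drawn up by function. In all tumours, 2.32% of all features were called, and 18% passed an unadjusted p under 0.05. Without Normal 1, 2, 3 and 4 in turn, 0.0634, 0.459, 0 and 0.111% of all features were called, and 0.799 to 7.84% without any 1 tumour. Of 21 tested genes of glutathione synthesis and recycling, 1 was called in all tumours and 9 were lower and 3 higher at an unadjusted p under 0.05, with a median log2 fold change of -0.53. The called gene was Ggct, which breaks down gamma-glutamyl peptides: it was at 3.56 to 11.8 CPM in Grow, 6.07 to 13.05 CPM in Regress and 2.24 to 3.34 CPM in Normal, and rose by 1.60 ± 0.35 on the log2 scale (edgeR adjusted p = 0.0328). The call of Ggct was lost without any 1 of Normal 1 to 4, Grow 5, Grow 6, Regress 2 or Regress 3 (edgeR adjusted p up to 0.131, log2 fold change 1.503 to 1.69 with any library left out). Of 13 genes of sulfate and PAPS supply 1 was called, the sulfate transporter gene Slc26a1, at 36.3 to 95.8 CPM in Grow, 30.1 to 57.7 CPM in Regress and 83.05 to 201 CPM in Normal. It fell in tumours, with a log2 fold change of -1.40 ± 0.28 (edgeR adjusted p = 0.029). That call was lost without Normal 1, Normal 3 or Normal 4 (edgeR adjusted p up to 0.122, log2 fold change -1.58 to -1.17 with any library left out).

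Of 20 inducible genes that report the xenobiotic receptors and NRF2, 1 was called in all tumours: Srxn1, the sulfiredoxin gene that NRF2 induces, rose by 1.26 ± 0.30 on the log2 scale (edgeR adjusted p = 0.0453), with 43.7 to 103 CPM in Grow, 30.5 to 112 CPM in Regress and 27.2 to 30.7 CPM in Normal. Of the 20, 6 were lower and 2 higher at an unadjusted p under 0.05 (18% of all features passed it), with a median of -0.37. The call of Srxn1 was lost without any 1 library other than Grow 2 and Regress 1 (edgeR adjusted p up to 0.146, log2 fold change 1.06 to 1.37 with any library left out). Without any 1 normal liver, 0 to 0.459% of all features were called in all tumours, against 2.32% with every library. Of 21 receptors and factors, none was called in all tumours, and 6 were lower and 2 higher at an unadjusted p under 0.05 (18% of all features). Nr1h4, the bile acid receptor FXR, was the one called in Grow, where it fell by 1.25 ± 0.29 on the log2 scale (edgeR adjusted p = 0.0467). That call was lost without any 1 library other than Regress 1 and Regress 4 (edgeR adjusted p up to 0.145, log2 fold change -1.38 to -1.16 with any library left out). In Grow 1.76% of all features were called, and 0.0317 to 0.19% without any 1 normal liver. None of 9 genes of UDP-glucuronate supply, 11 conjugate exporters, 9 other glutathione transferases and 13 other conjugating enzymes was called in the 3 comparisons with normal liver, with medians in all tumours of -0.20, -0.12, 0.26 and -0.64.

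Of the lists of sex-biased and zonal liver genes, 2 of 12 female-biased genes (Cyp2b13 and Prom1, both higher) and 1 of 12 periportal genes (Asl, an enzyme of the urea cycle, lower) were called in all tumours, and none of 15 male-biased and 17 pericentral genes. Cyp2b13, a female-specific cytochrome P450, was at 17.7 to 82.3 CPM in Grow, 0 to 23.1 CPM in Regress and 0 to 0.350 CPM in Normal (edgeR adjusted p = 0.0221). Asl was at 76.3 to 136 CPM in Grow, 81.5 to 267 CPM in Regress and 313 to 469.7 CPM in Normal (edgeR adjusted p = 0.0238). The calls of Cyp2b13, Asl and Prom1 were lost without any 1 of Normal 1 to 4, and that of Prom1 also without Grow 1, 5 or 6 or Regress 2 or 3 (edgeR adjusted p up to 0.1145 for Cyp2b13, 0.0863 for Asl and 0.14 for Prom1). Calls over all features in all tumours fell likewise, from 285 to 8, 58, 0 and 14 without Normal 1, 2, 3 and 4 in turn. The 7 measured hepatocyte markers summed to between 45394 and 245340 CPM in every library, lowest in Grow 3 and Grow 4 and highest in Grow 6, against 60552 to 86456 CPM in normal liver.

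Markers of other liver cells differed in summed level among the libraries, and their part in the transferase values was not tested. Stellate cell and fibroblast markers (8 of 8 measured) summed to 63.8 to 124 CPM in Grow, 120.4 to 955 CPM in Regress and 173 to 344 CPM in Normal, and Dcn among them was called lower in Grow, a call lost without Normal 1 or Normal 4 (edgeR adjusted p up to 0.0748). Gene by gene, 1 of the 8 was higher and 3 were lower in Grow at an unadjusted p under 0.05 (median log2 fold change 0.61). In Regress 5 were higher and 1 lower (median 2.53), and 7 were higher in Regress than in Grow. Of all features, 16.6% passed that p in Grow, 16.2% in Regress and 10% in Regress against Grow. Macrophage markers (6 of 6) summed to 41.2 to 365, 171 to 559 and 263 to 743 CPM in Grow, Regress and Normal. Cholangiocyte markers (7 of 7) summed to 24.2 to 125, 34.3 to 154 and 19.5 to 38.4 CPM in the same order. Endothelial markers (6 of 6) summed to 88.1 to 256, 142 to 180.3 and 116 to 164 CPM, with Lyve1 called higher in all tumours, and erythroid markers (3 of 4) to 302 to 1156, 166 to 765 and 402 to 1954 CPM. Adipocyte markers (4 of 4), with Fabp4 and Cidec called higher in all tumours, summed to 13.8 to 57.2, 8.27 to 91.1 and 3.50 to 6.32 CPM, and lymphoid markers (7 of 7) to at most 14.7 CPM in any library. The calls of Lyve1, Fabp4 and Cidec were lost without any 1 of Normal 1 to 4 (edgeR adjusted p up to 0.148, 0.1145 and 0.14), those of Lyve1 and Cidec also without Grow 1, 3, 4, 5 or 6 or Regress 2 or 3, and that of Lyve1 without Regress 4. Without any 1 normal liver, 0 to 0.459% of all features were called in all tumours, against 2.32%. In Grow the share was 0.0317 to 0.19%, against 1.76%.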

How the data were processed

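RNA of 14 mouse liver and liver tumour samples was sequenced after an unstranded library kit, per the labels' protocols. The authors deposited 1 table of estimated counts per RefSeq transcript, which are not whole. Per the submitters' processing notes, the tools were edgeR 3.14.0 and Salmon 0.3.1 and the build was mm9, no order or role being given. Of 35230 transcript rows, 26081 were named from a RefSeq gene table and 144 from GENCODE, and 9005 had no match and held 3.52 to 12.1% of a library. Estimated counts were summed per gene symbol and rounded to whole numbers. The table's 1 empty column was not used.

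Features passing filterByExpr (12300) were tested with edgeR 4.0.16 in R 4.3.3 (TMM normalization, robust quasi-likelihood test, Benjamini-Hochberg adjustment over all features, called at 0.05), in 1 fit of Grow, Regress and Normal, which share an estimate of the spread. TMZ was a term beside the group, and SAHA was fitted with Grow divided by SAHA. The biological coefficient of variation was 0.484. Standard errors are the log2 fold change divided by the root of F. The fits were tested on simulated counts first. DESeq2 1.42.0 and limma-voom (limma 3.58.1) were alternatives. Non-overlap, read in CPM, means that every library of a group lies above or below every library of the other. TPM used the mean length of the GENCODE transcripts linked to each RefSeq row, or else the median length of the symbol's GENCODE transcripts. The 9110 rows without a length were left out of TPM. Protein identity was computed from GENCODE reading frames. Members and lists were chosen with earlier results of these data known. Named genes are Gsta1, Gstm3, Gstp1, Ugt2b1 and Sult2a1, every member called, and in each family the member with the highest mean level per length and the one with the largest absolute log2 fold change in tumours, and genes named beyond these were chosen after their values were seen. Samples were grouped by the labels alone. Promoter windows come from RefSeq (GRCm38.p6), while the submitters' processing notes name mm9, so no coordinates were shared.

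Replicate numbers were not treated as pairs: deviations of same-numbered libraries correlated at -0.577 to 0.222 over 12 pairs. Intervals reflect depth only through the spread of the libraries, and the limit for a count of 0 is 3 counts over the normal group, which covers counting error only.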

Additional observations from a re-analysis of the deposited data

Results flagged for a closer look

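In 12 of 100 groups of 4 or 6 samples, for a gene or a summed family, the highest or lowest library stood far from the others by Dixon's criterion. Chance gives about 1 in 20 for normally distributed values, but CPM was used here without taking logs. The 12 are not separate, since a summed family follows its leading gene, such as Gsta3 in Gsta and Sult2a8 in Sult2. Regress 1 was the highest in 5 of the 12 groups. It held 19.9 CPM of Gsta2, where the next Regress tumour held 3.10 CPM, 2847 CPM of Gsta3 (next 741 CPM) and 3954 CPM of Sult2a8 (next 210 CPM). Its summed levels were 2985 CPM for the Gsta family (next 851 CPM) and 3964 CPM for the Sult2 family (next 218 CPM). Regress 1 was 1 of 2 Regress tumours given TMZ, and its correlation with normal livers ran from 0.815 to 0.949.

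Regress 3 held 17.5 CPM of Ugt1a7c, against 2.26 CPM in the next Regress tumour. Grow 5 held 17.6 CPM of Sult4a1 (next 4.61 CPM) and 17.7 CPM of the Sult3 to Sult7 genes together (next 4.98 CPM). Grow 1 held the lowest level of Ugt3a1 among Grow tumours, 7.99 CPM, where the next lowest held 16.6 CPM. Grow 2 held the lowest summed Gstp level, 558 CPM, where the next lowest held 849 CPM. Normal 1 held 35.8 CPM of Gstp2 (next 7.88 CPM), and Normal 2 held 20.8 CPM of the Sult3 to Sult7 genes (next 4.66 CPM), 19.4 CPM of it Sult3a1.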

How the results depend on the processing

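The number of transferase genes called depended on the processing, as did the share of all features called (in brackets). For all tumours the number was 0 with edgeR (2.32%), 7 with DESeq2 (8.58%), 1 (Sult5a1) without the low-count filter (1.03%), 5 with the length trend removed (5.82%) and 15 with TMZ as a term (8.88%). It was 6 without Grow 3 and Grow 4 (4.73%), 16 without Grow 3, Grow 4 and Regress 1 (11.1%), and 0 to 10 with single libraries left out (0 to 7.84%). For Grow it was 1 with edgeR (1.76%), 7 with DESeq2 (8.24%), 0 with limma-voom (0.732%), 2 (Sult5a1 and Ugt2b5) without the filter (0.795%) and 4 with the length trend removed (4.73%). It was 14 with TMZ as a term (9.23%), 6 on the groups compared alone (7.32%), 0 with Grow 3 and Grow 4 summed (0.927%) and 0 without Normal 4 and Regress 2 (0.143%). It was 7 without Grow 3 and Grow 4 (3.93%), 12 without Regress 1 as well (7.8%), and 0 to 7 with single libraries left out (0.0317 to 5.2%). For Regress it was 0 with edgeR (0.0244%), 6 with DESeq2 (5.79%) and 10 with TMZ as a term (5.63%). It was 7 without Grow 3, Grow 4 and Regress 1 (7.44%), and 0 to 3 with single libraries left out (0 to 5.28%). For Regress against Grow, leaving out single libraries gave 0 to 5 (0 to 9.98%). For TMZ it was 0 with edgeR (0%), 15 with DESeq2 (3.77%), 4 with the length trend removed (0.629%) and 0 to 14 with single libraries left out (0 to 6.01%). For SAHA it was 0 with edgeR (0%) and 3 with DESeq2 (0.423%). The alternatives that leave out Grow 3, Grow 4 or Regress 1 together, and that join near-identical genes, were chosen after seeing the data. The cause was not tested.

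With a replicate block, 0 genes were called in Grow, and the log2 fold change of Ugt2b5 was -1.44 (edgeR adjusted p = 0.358). The block left 0 of all features called in all tumours, Grow and Regress, against 285, 217 and 3 without it, so all 14 calls of listed genes were lost under it. The numbers share only a label: 0 of 12 libraries correlated best with their own number. The sign of Gsta1 in all tumours turned to -1.74 when joined with Gsta2, -0.16 with TMZ as a term and -0.057 without Grow 3, Grow 4 and Regress 1. That of Gstm3 turned to -0.23 with limma-voom, -0.75 with TMZ as a term, -0.76 without Grow 3 and Grow 4 and -0.80 without Regress 1 as well. Protein identity from RefSeq was not run.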
